A study of Mus musculus with 37 samples.

Results

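The genes described here are 39 mouse genes that interferon switches on in cells meeting a virus: sensors of foreign RNA, the transcription factors Stat2, Irf7 and Irf9, and effectors such as the Ifit, Oas, Mx and Parp genes. They were chosen by symbol with earlier results of these data known. Shares of members set beside those of all genes are therefore descriptions and not tests of the set. A gene counted as measured where the array annotation gave a transcript cluster that single symbol. Of the 39 genes 37 were measured, out of 19938 genes with such a cluster. None of the 37 had more than 1 such cluster, and no filter on low values was used. Oas1a and Sp100 are also named in a cluster with several symbols, which was not read. Isg15 was left out because its cluster also carries the symbol Gm9706, and no cluster with the symbol Ifi44 was analysed here.

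Colon RNA came from 37 mice, and each mouse had its own Affymetrix Mouse Gene 1.0 ST array. The wild-type strain was C57BL/6J. The knockout strain was B6.129S4-Timp1tm1Pds/J, in which the gene for Timp1, a secreted inhibitor of matrix metalloproteinases, is disrupted in every cell. Colitis followed oral dextran sodium sulphate (DSS), a polysaccharide that injures the colonic epithelium, and each protocol, acute or chronic, had its own control mice. The acute protocol had 3 controls of each genotype, and 5 wild-type and 6 knockout animals received DSS. In the chronic protocol each of the 4 groups held 5 mice. DSS dose, days of treatment, age and sex are not given in the sources used here, and whole colon was sampled, so fewer cells of a type and less RNA per cell cannot be told apart. Values are log2 signals. Differences between groups are on the log2 scale, given ± their standard error (SE) from a linear model (limma) over all genes and arrays, and a member is called higher or lower at a Benjamini-Hochberg adjusted p under 0.05 over 19938 genes.

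The animal numbers in the sample titles fall into 4 series, which the labels do not call batches. The wild-type animals of the acute protocol have plain numbers, as do knockout acute DSS mice 1 to 3. The second series holds every knockout acute control along with knockout acute DSS mice 4 to 6. The third holds the 5 wild-type animals on chronic DSS together with 3 of their controls (1 to 3), and the fourth holds the knockout animals of the chronic protocol with wild-type controls 4 and 5. Genotype and series therefore cannot be told apart among the acute controls or among the chronic DSS mice except through other groups. Array medians lay between 7.67 and 7.76, and no array correlated with the others of its group at a mean below 0.967. Timp1 read 7.56, 7.56 and 7.76 in wild-type and 7.12, 6.97 and 6.94 in knockout acute controls. It read 11.09, 10.94, 12.19, 9.47 and 10.05 in wild-type acute DSS and from 7.10 to 8.68 in knockout acute DSS. The genotypes did not overlap in either, and by limma the difference was called under DSS (-3.14 ± 0.33, adjusted p = 1.34e-07) and not in controls (-0.62 ± 0.44, adjusted p = 0.608). It was also lower in knockout under chronic DSS (-1.38 ± 0.34) and not called in chronic controls (0.01 ± 0.34), where the gene was low in both genotypes. Y-linked signal was present in 2 of the 37 arrays, knockout acute control 2 and knockout acute DSS 4.

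Type I interferons are cytokines secreted when sensors such as Ifih1 (MDA5) bind viral RNA in the cytoplasm. They bind a receptor made of Ifnar1 and Ifnar2, whose kinases Jak1 and Tyk2 activate Stat2. Stat2 acts with Irf9 in a complex that binds the interferon-stimulated response element (ISRE) in promoters. Type III interferons, which act mainly on epithelium such as that of the gut, use another receptor and reach the same complex, so these genes alone do not identify the interferon.

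Promoters were examined because the ISRE is the element through which these genes are known to be induced. RefSeq windows of assembly GRCm38.p6, running from 250 bases before to 50 bases after the annotated start, were matched by symbol for 30 of the 39 genes. The ISRE core, GAAA followed by any 2 bases and another GAAA, searched on both strands with overlapping matches allowed, was found for 12 of these 30 genes (40.0%), against 3.99% of 27025 genes with a window of the same length. The interferon gamma element core TTCNNNGAA was found for 6 of 30 members (20.0%), against 9.55% of all genes. A match describes letters in this window and is not evidence of a bound factor. The 250 bases before the start are shown 5′ to 3′ on the gene's strand for 3 members with the core and large differences, and for Irf7, a called member without it. Capitals mark the core or its reverse complement.
Ddx60: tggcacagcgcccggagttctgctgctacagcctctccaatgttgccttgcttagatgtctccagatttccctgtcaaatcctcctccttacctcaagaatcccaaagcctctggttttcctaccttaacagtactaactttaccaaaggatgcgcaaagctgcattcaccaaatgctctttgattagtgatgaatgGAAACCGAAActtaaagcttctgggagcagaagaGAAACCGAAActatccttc
Ifit1: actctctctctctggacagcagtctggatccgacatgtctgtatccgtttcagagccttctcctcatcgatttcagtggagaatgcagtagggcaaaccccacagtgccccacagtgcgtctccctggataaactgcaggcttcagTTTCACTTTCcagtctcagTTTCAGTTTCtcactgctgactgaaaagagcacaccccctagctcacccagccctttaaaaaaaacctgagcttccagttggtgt
Oas3: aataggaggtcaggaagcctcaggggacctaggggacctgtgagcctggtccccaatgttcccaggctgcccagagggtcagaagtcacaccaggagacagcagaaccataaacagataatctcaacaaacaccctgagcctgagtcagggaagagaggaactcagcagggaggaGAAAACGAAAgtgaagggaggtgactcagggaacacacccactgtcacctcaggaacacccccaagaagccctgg
Irf7: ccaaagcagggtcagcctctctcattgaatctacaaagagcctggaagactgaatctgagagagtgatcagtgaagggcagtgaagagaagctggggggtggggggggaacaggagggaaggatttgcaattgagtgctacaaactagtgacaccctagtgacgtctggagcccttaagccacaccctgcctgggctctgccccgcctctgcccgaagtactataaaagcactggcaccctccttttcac

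The Ddx60 stretch lies at chr8:61927837-61928086 on the plus strand and holds the core at -53 to -44 and at -19 to -10, counted from the start. The Ifit1 stretch, at chr19:34640639-34640888 on the plus strand, holds the reverse complement at -104 to -95 and at -85 to -76. The Oas3 stretch, at chr5:120777660-120777909 on the minus strand, holds 1 core at -75 to -66. The Irf7 stretch, at chr7:141266425-141266674 on the minus strand, holds none. Both Ddx60 matches read GAAACCGAAA and the Oas3 match reads GAAAACGAAA. Ifit3, Oas1a, Ifih1, Isg15, Rsad2, Stat2, Trim30a, Bst2 and Eif2ak2 were the other members with a match, which for Ifih1 and Eif2ak2 lay after the start. Of the 10 members called higher in knockout acute controls 9 had a window, and 4 of these held the core (Ddx60, Ifit1, Oas3 and Stat2). Of the 30 called higher in knockout under acute DSS 23 had a window, and 8 held it. Beside the 12 of 30 genes with a window (40.0%), these counts say nothing particular of the called members.

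The mean log2 signal of the 37 members was taken in each array as a description of the whole set. Wild-type acute controls had means of 8.64, 8.80 and 8.65, and knockout acute controls had 9.63, 9.70 and 9.14. Knockout controls thus lay above every wild-type control, and the third knockout control lay closest to them. Wild-type acute DSS arrays had 8.97, 8.41, 9.63, 8.53 and 8.59, and knockout acute DSS arrays ran from 9.49 through a median of 9.81 to 10.05. A single wild-type DSS array, number 3, lay inside the knockout range, and the other 4 lay below it. In the chronic protocol the controls of both genotypes lay between 8.52 and 8.78. Wild-type DSS arrays had 9.07, 9.47, 9.32, 8.62 and 9.10, and knockout DSS arrays 9.40, 8.97, 9.07, 9.06 and 9.16. Chronic DSS arrays of both genotypes were above the controls except wild-type array 4. Group means ± SD are drawn in the plot of set means.

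**Figure D1:**
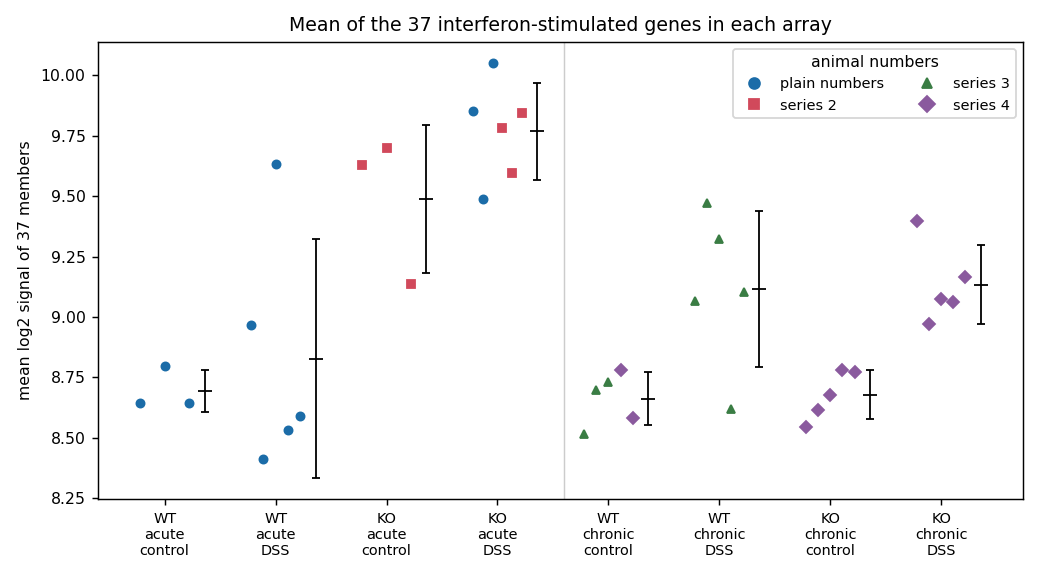
Mean log2 signal of the 37 measured members (vertical axis) in each of the 37 arrays, by group, with colour and shape for the series of animal numbers and bars for the group mean ± SD. Knockout acute arrays, controls and DSS alike, sit between 9.14 and 10.05, and all other groups of controls sit between 8.52 and 8.80.

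The highest of the 37 arrays was a knockout acute DSS array for 25 members, a knockout acute control for 4, a wild-type acute DSS array for 6 and a wild-type chronic DSS array for 2. Knockout acute DSS array 3 alone was highest for 17 members, and wild-type acute DSS array 3 for 6. Counted against the wild-type acute controls, each knockout acute control exceeded all 3 of them for 37, 36 and 28 members. Each knockout acute DSS array did so for 32 to 37 members. The 5 wild-type acute DSS arrays did so for 20, 5, 31, 7 and 10 members, so wild-type animals on the same protocol ranged from few members to nearly all.

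**Figure D2:**
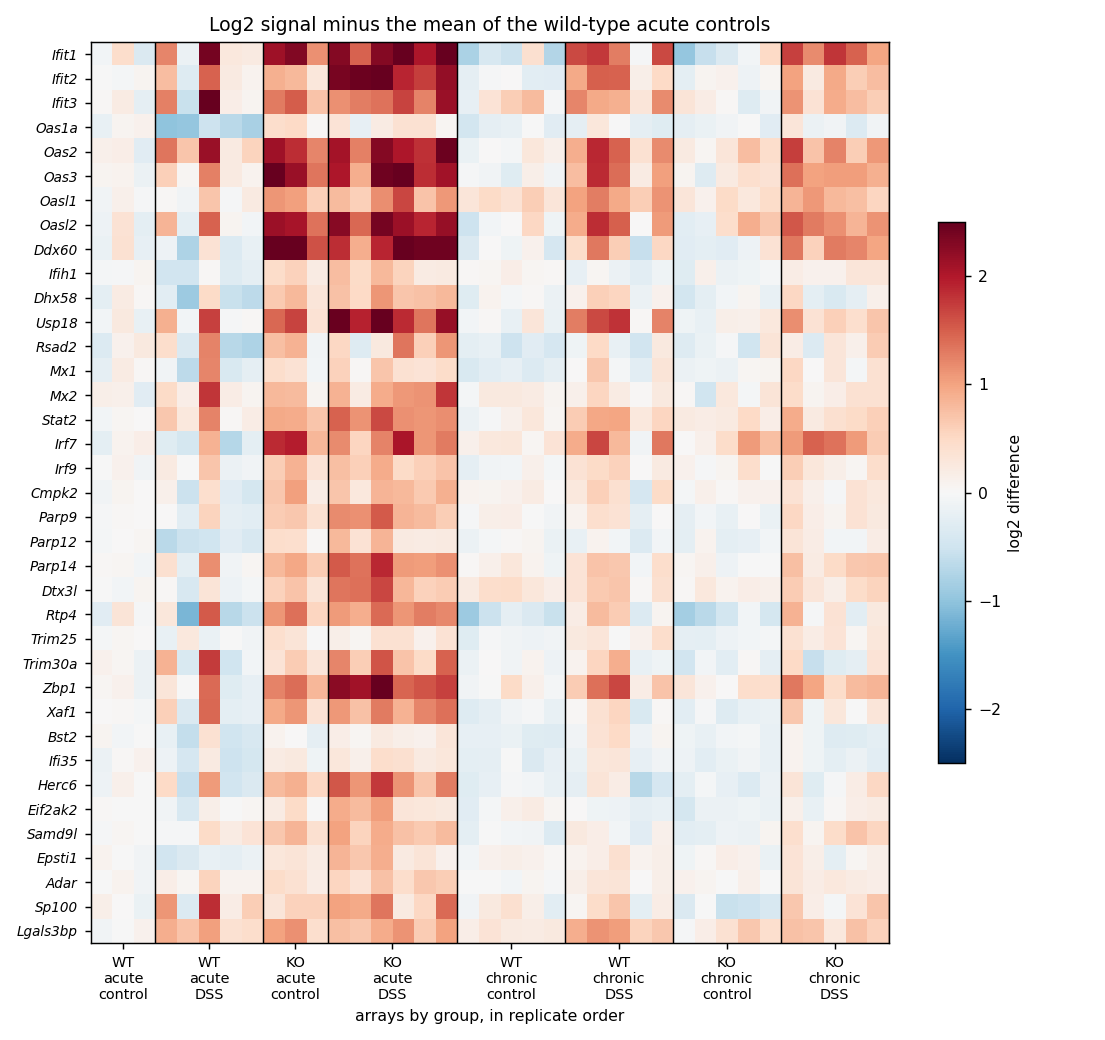
Log2 signal of each measured member (1 line per gene) minus the mean of the wild-type acute controls, in each array, with arrays grouped by genotype, protocol and treatment and colours from -2.5 to 2.5. Knockout acute controls and knockout acute DSS arrays are red for most genes, and wild-type acute DSS array 3 stands out among its group.

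The first comparison asked whether untreated knockout and wild-type mice of the acute protocol differed. They did for 10 of 37 members, all higher in knockout and none lower, against 0.341% of all genes higher and 0.777% lower in limma. The 10 were Ddx60, Oas2, Oas3, Oasl1, Oasl2, Ifit1, Stat2, Irf7, Samd9l and Lgals3bp. The median difference of the members was 0.63, against 0.01 over all genes, and 36 of 37 members were above 0. An unadjusted p under 0.05 in limma was found for 25 members, against 2605 of 19938 genes. Every knockout control exceeded every wild-type control for 28 members, against 10.8% of all genes.

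Among the RNA sensors, 1 of 4 was called higher. Ddx60, a helicase reported to aid recognition of viral RNA, read 7.42, 7.96 and 7.37 in wild-type controls and 10.28, 10.19 and 9.17 in knockout controls. The groups did not overlap, and the difference was 2.30 ± 0.37 (4.93-fold, adjusted p = 0.00274, limma). Zbp1, which binds nucleic acid of the Z form and can start cell death, read 8.66, 8.72 and 8.47 against 9.86, 10.02 and 9.46. These values did not overlap either, but the difference of 1.16 ± 0.33 missed the threshold (adjusted p = 0.0775, limma). Ifih1 and Dhx58 (LGP2) differed by 0.41 and 0.59 without a call.

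Both Irf7 and Stat2 of the 3 transcription factors were called higher. Irf7, the factor that drives interferon alpha genes and is itself induced, read 9.19, 9.51 and 9.59 in wild-type and 11.29, 11.39 and 10.26 in knockout controls (1.55 ± 0.37, 2.92-fold, adjusted p = 0.0295, limma). Stat2 read 8.96, 9.08 and 9.04 against 9.98, 9.96 and 9.72 (0.86 ± 0.21, adjusted p = 0.0347, limma). Irf9 read 8.99, 9.11 and 8.92 against 9.62, 9.88 and 9.35, and its 0.61 ± 0.17 missed the threshold (adjusted p = 0.0726, limma). For all 3 factors each knockout array exceeded each wild-type array.

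Among 10 RNA-binding and RNA-degrading effectors, 5 were called higher: Ifit1, Oas2, Oas3, Oasl1 and Oasl2. The Oas enzymes make the oligoadenylate that activates RNase L, and the Oasl proteins are their relatives. Oas3 had the largest difference of the 5 (2.01 ± 0.34, 4.04-fold, adjusted p = 0.00275, limma). Ifit1, which binds the cap of viral RNA and blocks its translation, read 8.08, 8.59 and 7.79 in wild-type and 10.27, 10.47 and 9.29 in knockout controls (1.85 ± 0.48, adjusted p = 0.047, limma). Ifit2, its RNA-binding relative, read 7.36, 7.32 and 7.43 against 8.25, 8.18 and 7.65, a smaller gap of 0.66 ± 0.34 that was not called (adjusted p = 0.413, limma).

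In the remaining classes calls were few. Of 8 other antiviral effectors only Samd9l was called, a factor that restrains virus and cell growth (0.64 ± 0.15). Rtp4, an interferon-induced receptor chaperone, read 8.37, 8.98 and 8.64 in wild-type and 9.77, 10.04 and 9.21 in knockout controls. Trim30a, a TRIM protein that restrains inflammatory signalling, read 9.41, 9.35 and 9.16 against 9.65, 9.94 and 9.61. Neither overlapped between groups, and neither was called (1.01 ± 0.39 and 0.43 ± 0.37). None of 3 members of the ISG15 and ubiquitin class was called, though all 3 had an unadjusted p under 0.05 in limma. Usp18, which strips ISG15 from proteins and dampens the receptor, read 7.80, 8.10 and 7.68 against 9.30, 9.56 and 8.23. Herc6, the mouse ligase that attaches ISG15, read 7.83, 8.09 and 7.95 against 8.76, 8.84 and 8.47. Knockout controls were above wild-type controls for both genes, and the third knockout array was again the lowest of its group.

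None of the 4 PARP and Dtx3l genes was called, with differences from 0.30 to 0.81 and 3 at an unadjusted p under 0.05 in limma. Parp14, which adds ADP-ribose to proteins, read 9.36, 9.37 and 9.26 in wild-type and 10.14, 10.30 and 9.97 in knockout controls. Parp9, the partner of the ubiquitin ligase Dtx3l, read 9.01, 9.06 and 9.04 against 9.67, 9.71 and 9.43. The groups were separate for both genes (0.81 ± 0.23 and 0.56 ± 0.18). Of 5 other induced genes Lgals3bp, a secreted galectin-binding glycoprotein, was called (0.85 ± 0.18, adjusted p = 0.0129, limma). Sp100, a nuclear body protein, read 9.11, 8.97 and 8.78 against 9.25, 9.53 and 9.52. Xaf1, a proapoptotic partner of XIAP, read 7.99, 8.02 and 7.95 against 8.94, 9.09 and 8.34. Both were uncalled, and neither overlapped between genotypes.

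The count of 10 depended on single arrays and on the series. Leaving out wild-type control 1 or 2 left 4 members, and leaving out wild-type control 3, knockout control 1 or knockout control 2 left Ddx60 and Oas3 only, while 9 remained without knockout control 3. Without the 2 arrays with Y-linked signal, a choice made after the data were seen, 3 were called (Ddx60, Oas3 and Oasl1). With animal series as a covariate 9 members were called, of which only Stat2 was among the 10. The other 8 were Dtx3l, Eif2ak2, Epsti1, Ifih1, Parp12, Parp14, Parp9 and Zbp1, and Ddx60 fell to 1.31 (adjusted p = 0.16, limma). With series as a random block Ddx60 and Oas3 remained. The difference in set mean was 0.79, and 0.85 with the covariate. That covariate rests on the 6 knockout acute DSS arrays, the only acute group that spans both series, and no series held both genotypes of acute controls.

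The knockout acute controls also stood above the knockout controls of the chronic protocol. All 3 exceeded all 5 knockout chronic controls for 28 members, against 8.08% of all genes, with a median difference of 0.65. Wild-type acute controls exceeded all wild-type chronic controls for 1 member, against 11.3% of all genes, with a median of 0.03. Protocol, series and any other difference between these control groups cannot be told apart.

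The same comparison was made under acute DSS, with 6 knockout and 5 wild-type arrays, so its count of calls is not on a par with that of 3 against 3 controls. All 37 members were above 0, from 0.16 to 2.26 with a median of 0.84 against 0.02 over all genes. Called higher in knockout were 30 members, and none was lower, against 15.8% of all genes higher and 15.2% lower in limma. Every knockout DSS array exceeded every wild-type DSS array for 12 members, against 2.96% of all genes. Ifit3, Rsad2, Mx1, Mx2, Trim30a, Sp100 and Lgals3bp were the 7 members not called.

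All 4 RNA sensors were higher in knockout under DSS. Ddx60 read 7.45, 6.80, 7.94, 7.24 and 7.39 in wild-type DSS and from 8.48 through a median of 9.74 to 10.33 in knockout DSS. The difference, 2.26 ± 0.27 (4.77-fold, adjusted p = 1.07e-06, limma), was the largest of the members, and the groups did not overlap. Zbp1 read 8.92, 8.61, 10.04, 8.32 and 8.40 in wild-type DSS and 10.07 to 11.21 in knockout DSS, median 10.51 (1.70 ± 0.25, 3.25-fold, adjusted p = 8.53e-06, limma). Only wild-type array 3 came near the knockout range. Ifih1 was higher by 0.80 and Dhx58 by 1.14.

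All 3 transcription factors were called. Irf7 read 9.13, 8.997, 10.30, 8.72 and 9.18 in wild-type DSS and 9.97 to 11.46 in knockout DSS, median 10.65 (1.40 ± 0.27, adjusted p = 0.000252, limma). Stat2 read 9.70, 9.29, 10.27, 9.06 and 9.21 against 10.13 to 10.67, median 10.18 (0.79 ± 0.16). Irf9 read 9.24, 8.99, 9.70, 8.85 and 8.92 against 9.48 to 9.93, median 9.66 (0.54 ± 0.13). For each factor wild-type array 3 overlapped the knockout arrays, and the other 4 wild-type arrays lay below all of them.

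**Figure D3:**
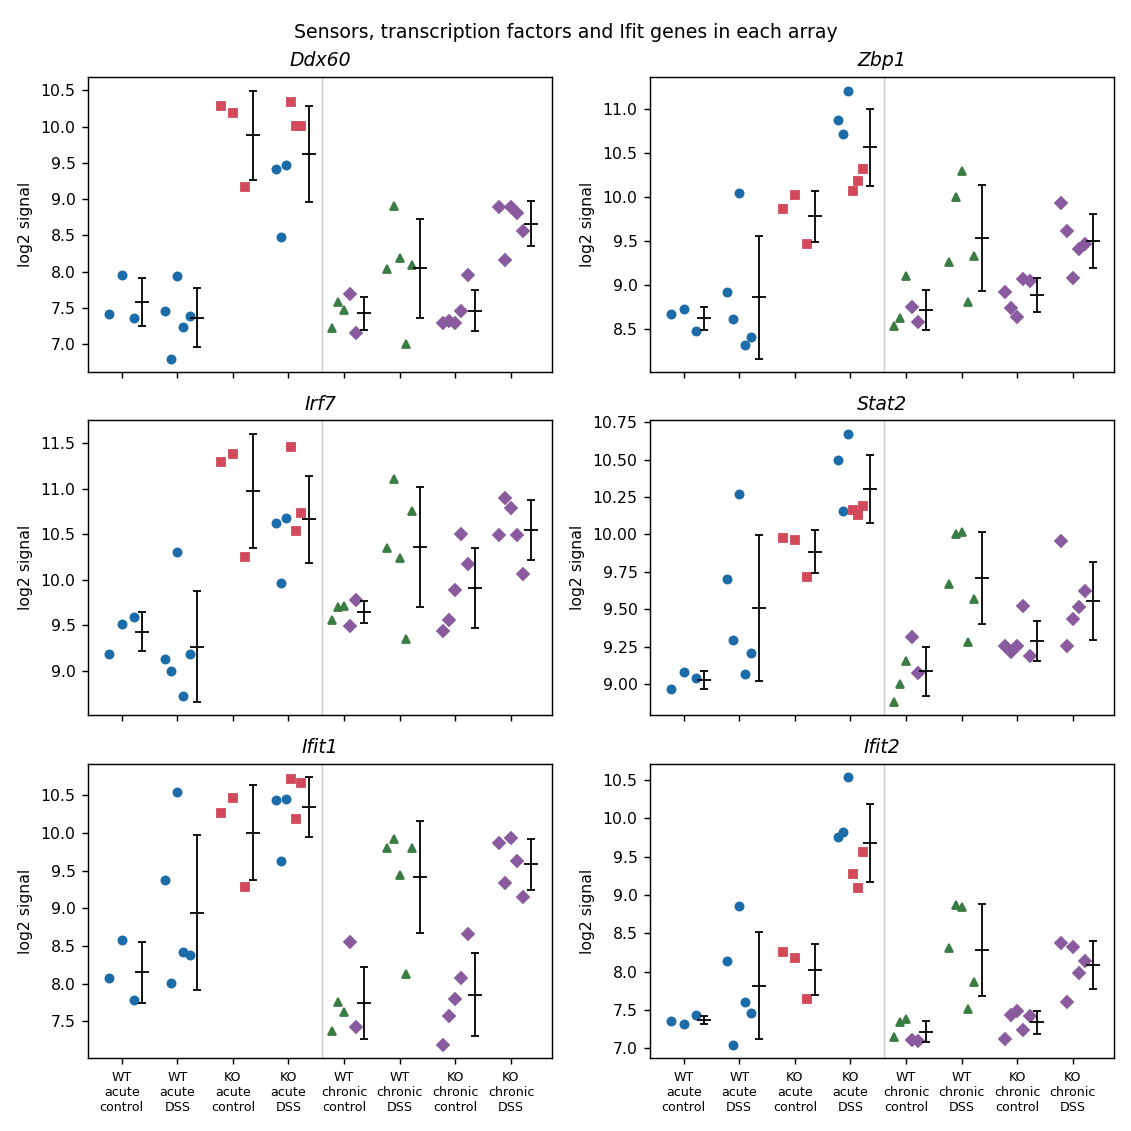
Log2 signal (vertical axes) of Ddx60, Zbp1, Irf7, Stat2, Ifit1 and Ifit2 in each array by group, with circles for plain animal numbers, squares for the second series, triangles for the third and diamonds for the fourth, and bars for the group mean ± SD. Ddx60 in knockout acute arrays, 8.48 to 10.33, lies above every wild-type acute array, the highest of which read 7.96.

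Of 10 RNA-binding and RNA-degrading effectors 9 were called, Ifit3 being the exception. Ifit2 read 8.13, 7.05, 8.85, 7.60 and 7.46 in wild-type DSS and 9.09 to 10.54 in knockout DSS, median 9.65 (1.85 ± 0.25, 3.61-fold, adjusted p = 3.12e-06, limma), without overlap. Ifit1 read 9.37, 8.01, 10.54, 8.42 and 8.38 against 9.63 to 10.71, median 10.44 (1.40 ± 0.35), and wild-type array 3 overlapped. Oas3, Oasl2, Oas2 and Oas1a were higher by 1.52, 1.64, 1.00 and 0.99. Eif2ak2 (PKR), the kinase that halts translation on double-stranded RNA, was higher by 0.66 without overlap, and the RNA editor Adar by 0.37.

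Among 8 other antiviral effectors, 4 were called: Rtp4, Cmpk2, Bst2 and Samd9l. Rtp4 read 8.96, 7.52, 10.20, 7.97 and 8.13 in wild-type DSS and 9.58 to 10.08 in knockout DSS, median 9.81 (1.27 ± 0.29). Trim30a read 10.17, 8.93, 11.05, 8.82 and 9.23 against 9.79 to 10.88, median 10.27, and its 0.68 ± 0.28 was not called. Wild-type array 3 was the highest of all acute DSS arrays for both genes. The GTPases Mx1 and Mx2 and the radical enzyme Rsad2 (viperin), classical antiviral genes, differed by 0.43 to 0.61 without a call.

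The ISG15 and ubiquitin genes were all called. Usp18 read 8.75, 7.79, 9.57, 7.83 and 7.89 in wild-type DSS and 9.20 to 10.98 in knockout DSS, median 9.91 (1.65 ± 0.30). Herc6 read 8.46, 7.39, 9.02, 7.47 and 7.59 against 8.66 to 9.72, median 9.16 (1.22 ± 0.22). Both ranges overlapped only through wild-type array 3. Trim25, a ubiquitin ligase that acts on the RNA sensor RIG-I, was higher by 0.27. All 4 PARP and Dtx3l genes were called, at 0.92 to 1.11. Parp14 read 9.74, 9.08, 10.49, 9.25 and 9.37 against 10.37 to 11.21, median 10.58. Parp9 read 9.04, 8.77, 9.60, 8.82 and 8.78 against 9.65 to 10.57, median 10.03. Parp9 did not overlap between genotypes, and Parp14 overlapped through wild-type array 3.

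Of 5 other induced genes Xaf1, Ifi35 and Epsti1 were called. Xaf1 read 8.57, 7.63, 9.43, 7.75 and 7.79 in wild-type DSS and 8.72 to 9.36 in knockout DSS, median 9.14 (0.85 ± 0.21). Sp100 read 10.06, 8.62, 10.79, 9.14 and 9.57 against 9.19 to 10.37, median 9.93, and did not differ by the test (0.23 ± 0.25, adjusted p = 0.519, limma). Its groups overlapped widely, and the highest Sp100 value of the acute DSS arrays was wild-type array 3. Lgals3bp, called in controls, differed by 0.16 ± 0.13 under DSS.

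Wild-type acute DSS array 3 thus set the overlap for many members. Leaving out any 1 array of the comparison left 30 to 34 members called, and without array 3 the difference in set mean was 1.14 in place of 0.94. The 3 knockout DSS arrays with plain numbers, the series of the wild-type mice, averaged 9.80, and the 3 of the second series 9.74. All 37 members lay above the wild-type mean in each trio. All arrays of the trio exceeded all wild-type arrays for 15 members with plain numbers (15% of all genes) and for 18 members in the second series (9.19% of all genes), with median differences of 0.93 and 0.83. Within the plain series alone, fitted by itself, 16 of the 30 members were called. With series as a covariate 29 were called, all among the 30, and Trim25 was the one lost. The trios differed in which genes were high: Ddx60, Rsad2 and Mx2 were lower by -0.99, -0.87 and -0.66 in the plain trio, and Dtx3l, Zbp1 and Ifit2 were higher by 0.78, 0.74 and 0.73.

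The genotype difference was thus measured in control and in DSS animals that share no arrays, although part of the knockout DSS arrays belong to the series of the knockout controls. Of the 10 members called in controls 9 were among the 30 called under DSS, and Lgals3bp was the exception. As 81.1% of all 37 members were called under DSS, an overlap of this size largely follows from the counts. Above 0 in both were 36 members, which follows from 36 in controls and all 37 under DSS. Ddx60 had the largest difference in both (2.30 and 2.26). Oas2 had 1.73 in controls and 1.00 under DSS, while Ifit2 had 0.66 and 1.85.

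**Figure D4:**
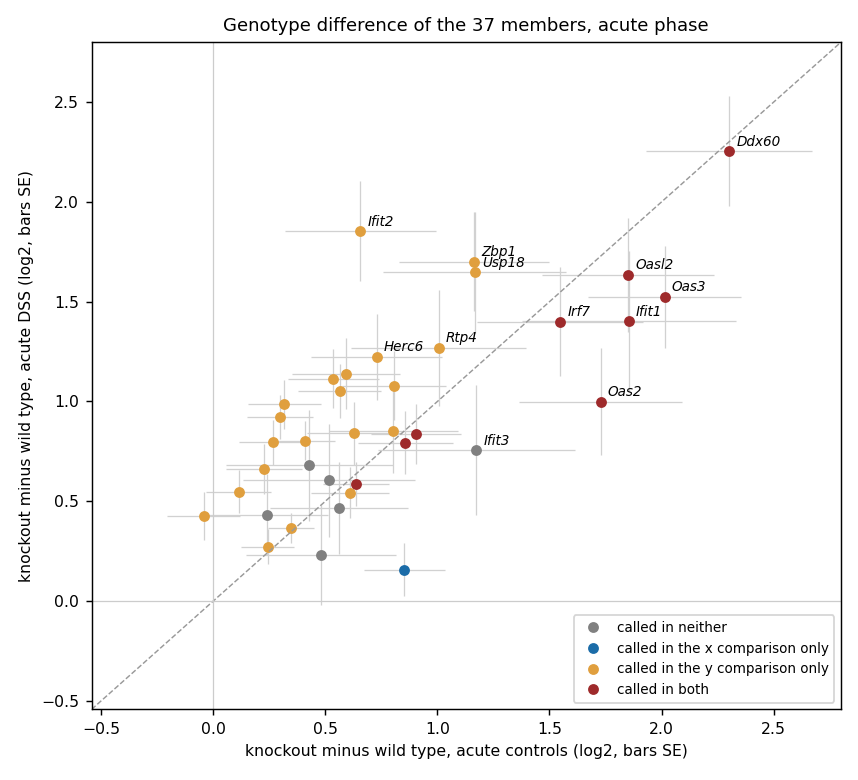
Knockout minus wild-type log2 difference of each of the 37 members in acute controls (horizontal) and under acute DSS (vertical), with SE bars, coloured by where the member was called, and a dashed line of equal differences. All members lie above 0 vertically, and Ddx60 lies at 2.30 and 2.26, while Ifit2 lies above the line at 0.66 and 1.85.

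Few members were called for acute DSS against control within a genotype. In wild-type colon 3 members rose and 3 fell, against 19.4% of all genes higher and 21.8% lower in limma, with a member median of 0.13. Oas2 (0.99 ± 0.32), Lgals3bp (0.70 ± 0.16) and Stat2 (0.48 ± 0.19) rose. Oas1a (-0.79 ± 0.15), Parp12 (-0.48 ± 0.13) and Ifih1 (-0.29 ± 0.12) fell. Oas1a read 8.87, 9.12 and 9.16 in wild-type controls and 8.04, 8.09, 8.54, 8.38 and 8.24 under DSS, with no overlap. It is of the same family as Oas2 and went the other way. The Oas2 call was lost without wild-type control 3 or wild-type DSS 3, and with only the compared arrays fitted. DSS arrays lay wholly above the controls for 2 members (Oas2 and Lgals3bp), against 17.7% of all genes. Array 3 decided the set mean: the difference was 0.13 with it and -0.07 without it. Without it 1 member was called higher and 6 lower. Higher calls were 1 without wild-type control 3 and 5 without wild-type DSS 2.

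In knockout colon only Ifit2 was called in acute DSS (1.65 ± 0.29, 3.13-fold, adjusted p = 0.00492, limma), and no member fell, against 0.266% of all genes higher and 0.853% lower. At an unadjusted p under 0.05 in limma there were 10 members, against 3251 of 19938 genes. Above 0 were 32 of the 37 members, and the median of all members was 0.21 against 0.00 over all genes. Ifit2 read 8.25, 8.18 and 7.65 in knockout controls and 9.09 to 10.54 under DSS. Stat2, Parp14 and Zbp1 were the other members wholly above the controls, 4 in all with Ifit2, against 2.79% of all genes. Within the second series, which holds all knockout controls, the Ifit2 difference was 1.28 and was not called (adjusted p = 0.541, limma). With series as a covariate its adjusted p was 0.0986, and without knockout control 3 it was 0.0501. The difference in set mean was 0.28, and 0.25 within the second series.

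The DSS response differed between genotypes for 3 of 37 members by the interaction test, 2 higher and 1 lower in knockout, against 6.51% and 5.75% of all genes. Oas1a differed by 0.67 ± 0.20 (adjusted p = 0.0296) and Parp12, a PARP with a zinc finger that binds RNA, by 0.63 ± 0.19 (adjusted p = 0.0261) in limma. Both fell with DSS in wild type, and their knockout differences were -0.12 and 0.15. Lgals3bp differed by -0.69 ± 0.22 (adjusted p = 0.039, limma): it rose by 0.70 in wild type and differed by 0.00 in knockout, whose controls read 12.01, 12.15 and 11.43 against 10.92, 11.01 and 11.11 in wild type. With series as a covariate Oas1a stayed called (adjusted p = 0.0403), and Parp12 and Lgals3bp did not (0.151 and 0.111). With only the 4 acute groups fitted, none was called. Higher calls were 0 without wild-type control 2 or 3, wild-type DSS 1 or knockout control 3. They were 6 without wild-type DSS 3, 4 without knockout DSS 4 and 5 without knockout DSS 6. The Lgals3bp call ended without any 1 of 10 of the 17 arrays: wild-type controls 1, 2 and 3, wild-type DSS 1 and 3, knockout controls 1 and 2, and knockout DSS 1, 2 and 5.

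Chronic DSS raised members in both genotypes. In wild type 13 of 37 rose and none fell, against 5.79% of all genes higher and 8.58% lower in limma, with a member median of 0.33 against 0.00 over all genes. They were Ifit1, Ifit2, Oas2, Oas3, Oasl1, Oasl2, Usp18, Stat2, Irf9, Trim25, Zbp1, Bst2 and Lgals3bp. In knockout 6 rose and none fell, against 2.47% and 5.47%: Ifit1, Oas3, Oasl1, Ddx60, Trim25 and Samd9l, with a median of 0.34 against -0.04. All DSS arrays lay above all controls for 7 members in wild type (6.23% of all genes) and for 12 in knockout (2.82% of all genes).

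Ifit1 had the largest difference in both genotypes. It read 7.37, 7.76, 7.62, 8.56 and 7.43 in wild-type controls and 9.81, 9.92, 9.44, 8.13 and 9.80 under chronic DSS (1.67 ± 0.37, 3.19-fold, adjusted p = 0.00206, limma). Wild-type DSS array 4 overlapped the controls, and the other 4 did not. In knockout it read 7.19, 7.57, 7.79, 8.07 and 8.65 against 9.87, 9.33, 9.94, 9.64 and 9.15, without overlap (1.73 ± 0.37, 3.32-fold, adjusted p = 0.0041, limma). Ifit2 read 7.14, 7.34, 7.38, 7.11 and 7.10 in wild-type controls and 8.31, 8.86, 8.85, 7.51 and 7.87 under DSS (1.07 ± 0.26). In knockout it read 7.13, 7.43, 7.48, 7.24 and 7.42 against 8.38, 7.60, 8.32, 7.98 and 8.14. The Ifit2 groups were separate in both genotypes, but the knockout difference of 0.75 ± 0.26 was not called (adjusted p = 0.0713, limma).

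Among the sensors, Ddx60 read 7.23, 7.59, 7.47, 7.69 and 7.15 in wild-type chronic controls and 8.04, 8.90, 8.19, 7.01 and 8.09 under DSS, which was not called (0.62 ± 0.29). In knockout it read 7.29, 7.33, 7.29, 7.46 and 7.95 against 8.89, 8.16, 8.89, 8.80 and 8.57, and rose by 1.20 ± 0.29 (2.30-fold, adjusted p = 0.00912, limma). The change in Ddx60 did not differ between genotypes by the interaction test (0.58 ± 0.41, adjusted p = 0.524, limma). Zbp1 read 8.53, 8.62, 9.10, 8.74 and 8.58 in wild-type controls and 9.26, 9.99, 10.29, 8.80 and 9.32 under DSS (0.82 ± 0.26). In knockout it read 8.92, 8.73, 8.63, 9.06 and 9.05 against 9.93, 9.61, 9.08, 9.41 and 9.46 (0.62 ± 0.26, not called).

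Of the transcription factors, Stat2 read 8.88, 9.001, 9.16, 9.31 and 9.07 in wild-type controls and 9.67, 10.00, 10.02, 9.28 and 9.57 under DSS (0.62 ± 0.16, adjusted p = 0.00897, limma). Irf9 rose by 0.39 ± 0.13. Neither was called in knockout, at 0.27 ± 0.16 and 0.19 ± 0.13. Irf7 read 9.56, 9.70, 9.71, 9.49 and 9.78 in wild-type controls and 10.35, 11.10, 10.24, 9.34 and 10.75 under DSS, where array 4 was the lowest of all 10. In knockout it read 9.43, 9.56, 9.89, 10.50 and 10.17 against 10.49, 10.90, 10.79, 10.49 and 10.06. Irf7 was called in neither (0.71 ± 0.29 and 0.64 ± 0.29).

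Usp18 read 7.79, 7.88, 7.68, 8.17 and 7.69 in wild-type controls and 9.14, 9.52, 9.67, 7.89 and 9.11 under DSS, a rise of 1.22 ± 0.32 (2.33-fold). In knockout it read 7.75, 7.68, 8.00, 7.99 and 8.12 against 9.02, 8.22, 8.45, 8.29 and 8.55 (0.60 ± 0.32, not called). Wild-type array 4 was again within the controls. Herc6, Parp14, Parp9, Rtp4, Trim30a, Sp100 and Xaf1 were called in neither genotype. Their differences ran from -0.01 (Herc6) to 0.79 (Rtp4) in wild type and from 0.15 (Trim30a) to 0.73 (Rtp4 and Sp100) in knockout.

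Chronic DSS in wild type and in knockout share no arrays. Ifit1, Oas3, Oasl1 and Trim25 were called in both, 4 of the 13 and of the 6. Above 0 were 33 members in wild type, 36 in knockout and 32 in both. By the interaction test 0 members differed in the change with chronic DSS, against 0.271% of all genes higher and 0.15% lower in limma. In that test 4 members had an unadjusted p under 0.05, against 3022 of 19938 genes. The difference in set mean was 0.46 in each genotype. Within the third series alone it was 0.47 in wild type, where 10 of the 13 members were called. The knockout mice all belong to the fourth series, and fitted without the other groups 17 members were called there, the 6 among them.

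**Figure D5:**
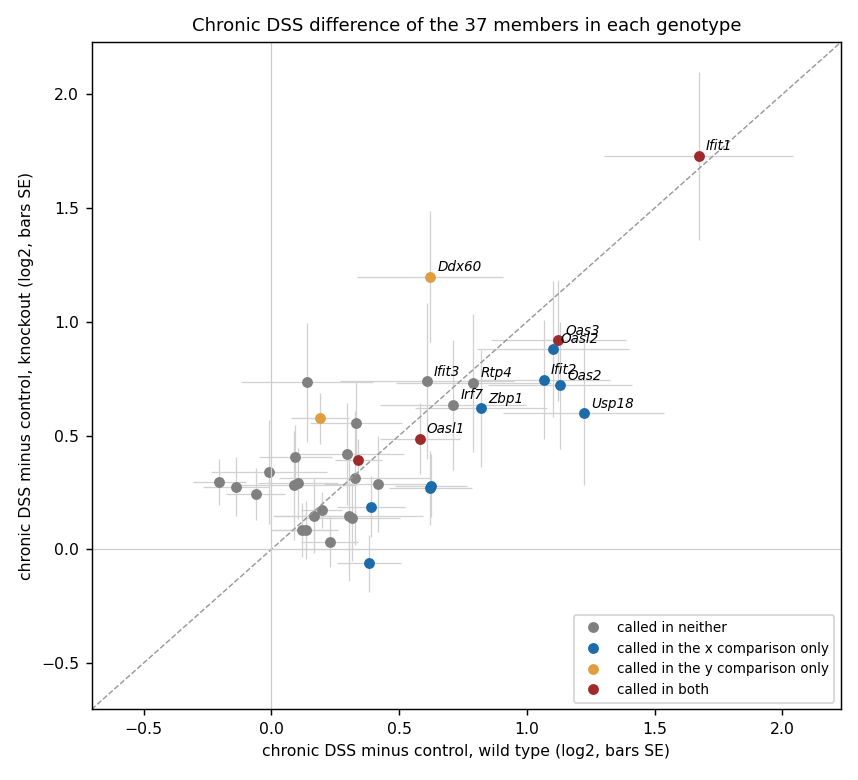
Chronic DSS minus control log2 difference of each of the 37 members in wild type (horizontal) and knockout (vertical), with SE bars, coloured by where the member was called, and a dashed line of equal differences. Ifit1 is the member farthest from 0 in both, at 1.67 and 1.73.

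Between genotypes, 0 members were called in chronic controls, against 0.0702% of all genes higher and 0.0301% lower in limma. There 0 members had an unadjusted p under 0.05, against 1886 of 19938 genes. The median was 0.02, with differences from -0.46 (Sp100) to 0.34 (Oasl2). Every knockout control exceeded every wild-type control for 1 member, Mx1, against 1.36% of all genes. Within the fourth series the difference in set mean was 0.00. Under chronic DSS 0 members were called, against 1.18% higher and 1.3% lower in limma. Here 4 members had an unadjusted p under 0.05 (Ddx60, Ifih1, Samd9l and Bst2), against 3378 of 19938 genes. The median was 0.03, and only Ifih1 was wholly above wild type, against 1.26% of all genes. The differences of Ddx60 (0.61 ± 0.29), Samd9l (0.40 ± 0.11, adjusted p = 0.0522) and Ifih1 (0.34 ± 0.10, adjusted p = 0.0674) were above 0, and that of Bst2 (-0.32 ± 0.13) was below. In acute controls Ddx60 had differed by 2.30. The difference between the protocols was not tested.

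The type I and III interferon genes were read beside these genes. Of 14 measured type I and III interferon genes 0 were called between genotypes in acute controls or acute DSS in limma. Their median differences were 0.04 and 0.01. An unadjusted p under 0.05 was found for 1 and 0 of them, against 2605 and 8092 of 19938 genes. Their mean signal lay between 6.46 and 6.79 in every acute array, below the array medians of 7.67 to 7.76. Ifna12 and Ifnab, the named genes of the list, differed by -0.11 ± 0.12 and 0.04 ± 0.13 in acute controls and by -0.16 ± 0.09 and 0.03 ± 0.10 under DSS. Ifnl2 was the 1 ligand of 14 called in wild-type acute DSS (0.32 ± 0.12), where 19.4% of all genes were called higher. Ifnb1 was the 1 called in knockout chronic DSS, where it fell by 0.26, and in the genotype comparison there (-0.26 ± 0.07). Of all genes 5.47% and 1.3% were called lower in these.

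The counts for this and the next lists stand beside 15.8% of all genes called higher and 15.2% lower in knockout under acute DSS, and a count near those shares says nothing particular of a list. In acute controls 2605 of 19938 genes had an unadjusted p under 0.05 in limma. Of 6 receptor and kinase genes 0 were called in acute controls in limma, and 0 had an unadjusted p under 0.05 (median -0.08). Under acute DSS Ifnar2 (-0.97 ± 0.22), Ifnar1 (-0.37 ± 0.08) and Jak1 (-0.31 ± 0.09) were lower in knockout, and Tyk2 (0.38 ± 0.08) and the type III receptor chain Ifnlr1 (0.27 ± 0.10) were higher. Ifnar2 and Ifnar1 rose with acute DSS in wild type by 1.25 ± 0.27 and 0.33 ± 0.09. Of 14 upstream sensors and adaptors 0 were called in acute controls in limma, with 3 at an unadjusted p under 0.05, and 5 were higher under DSS (Mavs, Tlr3, Aim2, Irf3 and Tbk1, at 0.24 to 0.73). The adaptor Sting1 and the DNA sensor Tlr9 differed by -0.44 ± 0.30 and -0.28 ± 0.24. Of 7 negative regulators 1 was higher under DSS, a share near that of all genes: Socs1, which blocks the receptor kinases (0.61 ± 0.17). Socs3 differed by -0.69 ± 0.41. Neither was called in acute controls (0.23 ± 0.23 and 0.20 ± 0.55).

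A list of 32 other interferon-stimulated genes, none of them a member, was read in the same way. In acute controls 2 were higher and none lower (Lgals9 and Phf11d, 1.01 ± 0.24 and 1.26 ± 0.31) with a median of 0.14. Under acute DSS 13 were higher and 3 lower with a median of 0.24. The 3 lower were Ifitm1, Ifitm2 and Ifitm3, membrane proteins that block viral entry, at -1.29, -0.71 and -0.83. Ms4a4c differed by -0.50 ± 0.45. A further list of 16 held genes induced chiefly by interferon gamma, and also Ifng, the interferon gamma gene itself. Of these 16, 1 was higher in acute controls and 11 under acute DSS, with medians of 0.33 and 0.88. Ifng was among the 11 and was not called in acute controls. Socs1, also among the 11, was counted with the negative regulators as well. Ido1, which degrades tryptophan, had 2.43 ± 0.63 in controls and 3.91 ± 0.47 under DSS, and the chemokine Cxcl9 had 1.67 ± 0.74, not called, and 2.52 ± 0.55. The mean of this list was 7.76 to 7.82 in wild-type and 8.26 to 8.56 in knockout acute controls, without overlap. Its part in the members' difference was not tested.

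Markers of other cells were read beside the acute differences. In acute controls no colonocyte, plasmacytoid dendritic cell, monocyte, T and NK cell, B cell, neutrophil or smooth muscle marker was called in limma. At an unadjusted p under 0.05 there were 5 T and NK cell markers, 1 monocyte marker and 0 of the others, against 2605 of 19938 genes. The mean of 9 T and NK cell markers was 7.01 to 7.17 in wild-type and 7.45 to 7.85 in knockout acute controls, without overlap, with Gzma and Nkg7 at 1.04 ± 0.30 and 1.13 ± 0.34. Under acute DSS 5 of the 9 were higher in knockout (median 0.51), and the means were 7.11 to 7.84 in wild type and 7.54 to 8.54 in knockout. Of 9 colonocyte markers 6 were higher in knockout under DSS (median 0.79), among them Slc20a1 (0.79 ± 0.26) and not Aqp8 (1.01 ± 0.58). Their mean ran from 9.74 to 12.13 in wild type and from 11.85 to 12.39 in knockout. The 9.74 was wild-type acute DSS array 3. Of the wild-type acute DSS arrays, array 3 also had the highest means of neutrophil (11.05) and of monocyte and macrophage markers (10.30). The part of these cell types in the members' difference was not tested.

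Lower in knockout under acute DSS were 5 of 6 neutrophil markers (median -1.78, Retnlg -1.99 ± 0.40 and S100a8 -1.88 ± 0.51), 4 of 8 monocyte and macrophage markers (median -0.58, Cd68 -1.11 ± 0.24 and Ccr2 -0.46 ± 0.28), and 3 of 6 plasmacytoid dendritic cell markers (median -0.15, Ly6d -1.08 ± 0.34 and Tcf4 -0.60 ± 0.12). Also lower were 4 of 6 smooth muscle markers (median -0.32, Cnn1 -0.52 ± 0.13 and Myh11 -0.19 ± 0.21). None of 5 B cell markers was called (Ms4a1 -0.47 ± 0.63 and Cd79a -0.70 ± 0.50). Plasmacytoid dendritic cells are a known source of type I interferon. Clock genes differed in acute controls, where 4 of 14 were higher in knockout, with a list mean of 8.71 to 8.80 in wild-type and 9.29 to 9.33 in knockout controls. Dbp had 2.10 ± 0.47 and Nr1d1 1.44 ± 0.38. Under acute DSS none of the 14 was higher and 1 was lower (median -0.09). The hour of sampling is not given in the sources used here, and its part in the result was not tested.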

How the data were processed

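Total RNA from snap-frozen colon of 37 mice was hybridised to Affymetrix Mouse Gene 1.0 ST arrays. The authors deposited 1 table of log2 values normalised by RMA, per the submitters' processing notes; the log base was read as 2 from the range of 3.03 to 14.96, since the sources used here do not state it. RMA sets all arrays to 1 distribution of values, so a shift shared by all genes would not be seen.

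Groups were taken from the sample titles and genotype, and each animal was 1 replicate. Of 35511 transcript clusters, 21789 had 1 gene symbol in the platform annotation. For the 999 genes with several clusters, the 1 with the highest mean was kept, which left 19938 genes. A linear model with 1 mean per group was fitted to all 37 arrays with limma 3.58.1 in R 4.3.3, and contrasts gave 8 comparisons of 2 groups and 2 interactions. The p-values are two-sided and were adjusted by Benjamini-Hochberg over all genes. No gene was filtered out. Depth does not apply to arrays, and the number of arrays limits the precision.

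The members and lists were chosen with earlier results of these data known. Array values are given for the 2 members of each role class with the largest mean absolute difference over the 8 comparisons, for Stat2, Irf7 and Irf9, and for Timp1; in other lists the first 2 genes by the same measure are named, with genes called in small counts named after their values were seen. The test was checked on simulated data with independent normal noise, the same spread for a gene in every group, and no animal series. That check does not cover groups of unequal spread or arrays that share a series. Each array was left out in turn, and 13 other alternatives varied the clusters, scaling, weights, prior, arrays fitted and animal series.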

Additional observations from a re-analysis of the deposited data

Results flagged for a closer look

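Within groups of 4 to 10 arrays, 9 of 228 sets of values (3.95%) had an end value far from the others by Dixon's criterion, which chance alone gives in about 1 in 20.

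In wild-type acute DSS mouse 3, Mx2 read 7.51 against 6.21 in the next highest array, and Adar read 9.83 against 9.43. In knockout acute DSS mouse 2, Cmpk2 was lowest at 7.88, with 8.29 next. Among wild-type chronic mice, Ifih1 was highest at 10.24 in control 3 (10.12 next), Epsti1 was highest at 9.32 in DSS mouse 3 (9.07 next), and Ifit1 was lowest at 8.13 in DSS mouse 4 (9.44 next). Among knockout chronic controls, Ddx60 was highest at 7.95 in mouse 5 (7.46 next), Stat2 was highest at 9.52 in mouse 4 (9.26 next), and Eif2ak2 was lowest at 8.48 in mouse 1 (8.76 next).

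The acute DSS change differed between genotypes by the interaction test in limma for Oas1a (0.67), Parp12 (0.63) and Lgals3bp (-0.69). Of the 37 members 2 were higher and 1 lower, against 6.51% and 5.75% of all genes. The members' shares did not exceed those of all genes. None of these calls remained with only the acute groups fitted, and each was lost when certain single arrays were left out. With series as a covariate only Oas1a stayed called.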

How the results depend on the processing

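No called member changed direction under any alternative run. Some alternatives could not change it, because they leave the members' differences as they are. These were the other prior, the mean of clusters, the removal of dim genes and the fit of only the compared arrays. The difference in set mean for wild-type acute DSS ranged from -0.07 to 0.24 over arrays left out in turn, while it stayed above 0 between genotypes in acute controls (0.69 to 0.97) and acute DSS (0.84 to 1.14) and for chronic DSS in wild type (0.37 to 0.58) and knockout (0.39 to 0.50). No paired analysis was possible because the titles give each animal its own number and replicate numbers in accession order pair nothing.

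With array weights, members higher were 1 (wild-type acute DSS, with 9 lower), 11 (knockout acute DSS), 14 (knockout chronic DSS), 29 (genotype, acute controls), 2 (genotype, chronic DSS) and 14 (acute interaction), and 1 was lower in wild-type chronic DSS. The chronic interaction then had 1 higher and 1 lower. With only the compared arrays fitted, members higher were 1 (wild-type acute DSS), 0 (knockout acute DSS), 17 (knockout chronic DSS), 21 (genotype, acute controls), 0 (acute interaction, with 0 lower) and 1 (chronic interaction), and 1 was lower in wild-type chronic DSS. Within 1 series alone, higher counts were 1 (wild-type acute DSS), 0 (knockout acute DSS), 17 (knockout chronic DSS) and 16 (genotype, acute DSS). With series as a covariate they were 0 (knockout acute DSS) and 1 (acute interaction, with 0 lower). With series as a random block they were 2 (genotype, acute controls) and 1 (acute interaction, with 0 lower). Cyclic loess gave 5 (wild-type acute DSS) and 2 (genotype, chronic DSS). Leaving out the dimmest genes gave 1 (genotype, chronic DSS) and 4 (acute interaction). Without the arrays with Y-linked signal, a choice made after seeing the data, they were 3 (genotype, acute controls), with 0 lower in the acute interaction. The cause of these shifts was not tested.

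Leaving out 1 array at a time, members higher ranged from 1 to 5 in wild-type acute DSS (lower, 2 to 6), 0 to 2 in knockout acute DSS, 10 to 16 in wild-type and 4 to 7 in knockout chronic DSS, 2 to 9 and 30 to 34 between genotypes in acute controls and acute DSS, 0 to 1 in chronic DSS, 0 to 6 in the acute interaction (lower, 0 to 1) and 0 to 1 in the chronic interaction. Knockout acute DSS had 0 without knockout control 3 and 2 without knockout DSS 5. The genotype comparison in chronic DSS had 1 without wild-type DSS 1 or 5 or knockout DSS 1 or 2, and the chronic interaction 1 without knockout control 2.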
